A study of Schizosaccharomyces pombe with 6 samples.

Results

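The genes *mcp60*, *hsp10*, *ssc1*, *mdj1* and *mge1* encode the chaperones that fold proteins in the mitochondrial matrix of fission yeast. They were chosen by name and function, with earlier results of these data known. A member had to have a probe set, the group of probes for 1 transcript, that the array's annotation pairs with that *S. pombe* gene alone. All 5 had 1 such probe set, out of 2899 *S. pombe* genes with a probe set of their own. In the reference, *mcp60* (SPAC12G12.04) and *ssc1* (SPAC664.11) lie on chromosome I, *mge1* (SPBC3B9.19) on chromosome II, and *mdj1* (SPCC4G3.14) and *hsp10* (SPCC550.06c) on chromosome III, and all are protein-coding. The matrix also holds other chaperones, among them the disaggregase Hsp78, whose gene *hsp78* has no probe set paired with it in the annotation and was not analysed here, so the counts below cover these 5 genes alone.

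Gene expression was measured in 3 cultures of the wild type strain 972 h- that had received NaHS (50 µM, 30 min, 30°C) and in 3 cultures of the same strain without NaHS. All cultures were grown in liquid medium to an OD600 of 0.5, and NaHS is a salt that gives hydrogen sulfide in water. A separate Affymetrix Yeast Genome 2.0 array was used for the RNA of each culture. The study asked which genes respond to hydrogen sulfide, with mitochondrial function among its questions.

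Most mitochondrial proteins are made in the cytosol and enter the matrix unfolded. Ssc1, the mitochondrial Hsp70, binds the incoming chain with energy from ATP, both as part of the import motor and as a folding chaperone. Mdj1, a J-protein, stimulates the ATPase of Hsp70, and Mge1, a nucleotide exchange factor, lets ADP go so that the cycle can start again. Mcp60 (Hsp60) forms a barrel in which a protein can fold, and Hsp10 is the lid of that barrel. These roles are best known from budding yeast and from bacterial relatives. In many organisms the genes of such chaperones are induced by heat and other stress that damages proteins.

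None of these 5 mitochondrial chaperone genes passed the test after NaHS treatment (0 of 5 with an adjusted p below 0.05 by limma, where 7.63% of all 4965 tested probe sets passed). The ratio of NaHS-treated to untreated signal was 1.18 for *hsp10*, 1.15 for *mcp60*, 1.08 for *mdj1*, 1.06 for *ssc1* and 0.97 for *mge1*. All 5 entered the test, since probe sets paired with *S. pombe* genes were not filtered on low values. The 95% intervals of all 5 stayed inside a 1.5-fold change in either direction, which is 0.58 on the log2 scale, as did those of 65.4% of the tested probe sets. In this fit, which does not pair the cultures, 1 member, *hsp10*, had an unadjusted p below 0.05, against 22.5% of the tested probe sets. SAM, the test named in the methods of the study and programmed here, called 0 members and 3% of the probe sets. Its constant of 0.426 makes small steady changes hard to call, so the 0 says little about changes of this size. The call of *hsp10* depended on the pairing of the cultures. In a fit that compares NaHS-treated and untreated cultures of the same replicate number (the replicate block), 1 of 5 members rose, namely *hsp10*, while 16.3% of all tested probe sets were called higher in that fit. Signals are on the log2 scale, where 1 unit stands for a factor of 2. Errors of group means are SD over 3 arrays, and fold changes carry the limma standard error.

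The chaperonin genes come first. *mcp60*, which encodes Hsp60, had log2 signals of 12.53, 12.30 and 12.52 in NaHS-treated replicates 1, 2 and 3, against 12.36, 12.17 and 12.20 in untreated replicates 1, 2 and 3. The groups overlapped, because NaHS replicate 2 was below untreated replicate 1. The mean was 12.45 ± 0.13 (SD, n = 3) after NaHS and 12.25 ± 0.10 (SD, n = 3) without it. This gave a log2 fold change of 0.20 (standard error 0.10, 95% interval -0.04 to 0.45, limma adjusted p = 0.313). Within replicates 1, 2 and 3 the differences were 0.16, 0.12 and 0.32, so the gene was higher after NaHS in each of the 3 replicates, with the largest step in replicate 3. With the replicate block the 95% interval was 0.05 to 0.35, and the limma adjusted p was 0.0551, which did not pass.

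*hsp10*, which encodes the lid of the Hsp60 barrel, had log2 signals of 12.60, 12.73 and 12.78 in NaHS-treated replicates 1, 2 and 3, against 12.41, 12.47 and 12.52 in untreated replicates 1, 2 and 3. The lowest NaHS value exceeded the highest untreated value, a pattern found in 2 of the 5 members and in 14.6% of the tested probe sets. The mean was 12.70 ± 0.10 (SD, n = 3) after NaHS and 12.47 ± 0.05 (SD, n = 3) without it. NaHS thus gave a log2 fold change of 0.23 (standard error 0.08, 95% interval 0.04 to 0.43), and the limma adjusted p was 0.156. The differences of 0.18, 0.26 and 0.26 in replicates 1, 2 and 3 varied little, with an SD of 0.04. It rose once the replicate number was fitted as a block, with a standard error of 0.04 and an adjusted p of 0.021. Of the tested probe sets, 744 (15.0%) had a larger log2 fold change than *hsp10*.

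Mcp60 and Hsp10 work as 1 complex, and the responses of their genes were compared directly. The log2 fold change of *mcp60* minus that of *hsp10* was -0.03, with values of -0.02, -0.13 and 0.06 in replicates 1, 2 and 3. It was within the spread of the replicates (exact two-sided permutation test over the 6 arrays, p = 0.9, adjusted p = 0.9 over 5 pairs of genes). With 3 arrays in each group this test cannot give a p below 0.1.

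The plot of the members by array shows these small steps beside the differences between replicates.

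**Figure D1:**
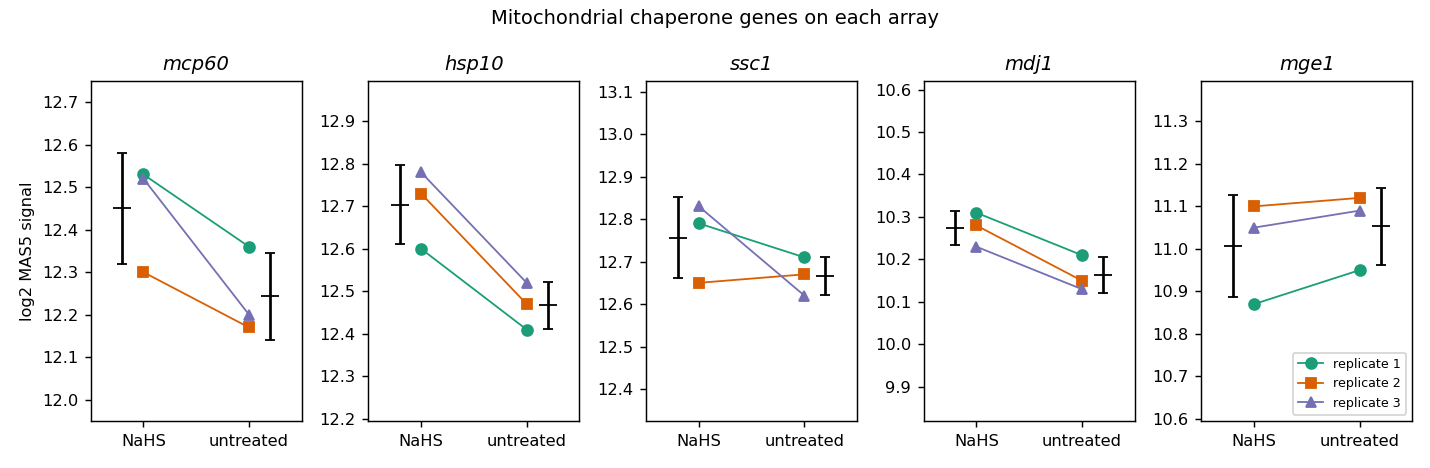
log2 MAS5 signal (y axis, 0.8 log2 units high in each panel, not starting at 0) of each mitochondrial chaperone gene on the NaHS-treated and untreated arrays, with lines joining cultures of the same replicate number and black bars giving the mean and SD of each group (n = 3). The lines of *hsp10*, *mdj1* and *mge1* run nearly in parallel, whereas those of *ssc1* cross.

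The Hsp70 system gave smaller values. *ssc1*, which encodes the mitochondrial Hsp70, had log2 signals of 12.79, 12.65 and 12.83 in NaHS-treated replicates 1, 2 and 3, against 12.71, 12.67 and 12.62 in untreated replicates 1, 2 and 3. NaHS replicate 2 was below 2 of the untreated arrays, and the groups overlapped. The mean was 12.76 ± 0.09 (SD, n = 3) after NaHS and 12.67 ± 0.05 (SD, n = 3) without it. Its log2 fold change was 0.09 (standard error 0.08, 95% interval -0.10 to 0.28, limma adjusted p = 0.619). Differences within replicates 1, 2 and 3 were 0.08, -0.02 and 0.21, so that 2 of 3 replicates were higher.

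*mdj1*, which encodes the J-protein partner of Ssc1, had log2 signals of 10.31, 10.28 and 10.23 in NaHS-treated replicates 1, 2 and 3, against 10.21, 10.15 and 10.13 in untreated replicates 1, 2 and 3. The groups did not overlap, although the highest untreated value was only just below the lowest NaHS value. The mean was 10.27 ± 0.04 (SD, n = 3) after NaHS and 10.16 ± 0.04 (SD, n = 3) without it. This made a log2 fold change of 0.11 (standard error 0.07, 95% interval -0.05 to 0.27, limma adjusted p = 0.426). The differences of 0.10, 0.12 and 0.10 in replicates 1, 2 and 3 had an SD of 0.01, the smallest of the members. The replicate block gave a 95% interval of 0.00 to 0.22 and a limma adjusted p of 0.109, which did not pass.

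*mge1*, which encodes the nucleotide exchange factor of Ssc1, had log2 signals of 10.87, 11.10 and 11.05 in NaHS-treated replicates 1, 2 and 3, against 10.95, 11.12 and 11.09 in untreated replicates 1, 2 and 3. It was the only member with a lower mean after NaHS, 11.01 ± 0.12 (SD, n = 3) against 11.05 ± 0.09 (SD, n = 3) without it, and the groups overlapped. The log2 fold change was -0.04 (standard error 0.09, 95% interval -0.27 to 0.18, limma adjusted p = 0.886). The differences of -0.07, -0.02 and -0.04 in replicates 1, 2 and 3 were all below 0. In 80.9% of the tested probe sets the log2 fold change was larger in size than that of *mge1*. The 95% interval of *mge1* included 0, so that no direction can be given for this gene. Its log2 fold change was 0.02 without NaHS replicate 1, and -0.03 without both replicate 1 arrays.

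Within the Hsp70 cycle the same test found no difference between responses, but its smallest possible p of 0.1 means that none could have passed. For *ssc1* minus *mdj1* the difference of the log2 fold changes was -0.02, and the exact permutation p was 0.7 (adjusted p = 0.875). That of *ssc1* minus *mge1* was 0.13, with 0.15, 0.00 and 0.25 in replicates 1, 2 and 3 (exact permutation p = 0.3, adjusted p = 0.5).

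Counted together, 4 of the 5 members had a positive log2 fold change and the median over the members was 0.11. Over all tested probe sets the median was 0.01, with log2 fold changes about evenly on both sides of 0. In all 3 replicates the NaHS array was higher for 3 members, *mcp60*, *hsp10* and *mdj1*, as for 33.3% of the tested probe sets. It was lower in all 3 replicates for 1 member, *mge1*, as for 30.2% of the tested probe sets. The plot of fold changes places *mge1*, *ssc1* and *mdj1* near the centre of the distribution. Fewer probe sets lay above *hsp10* and *mcp60*, with 15.0% and 17.6% of those tested having a larger log2 fold change.

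**Figure D2:**
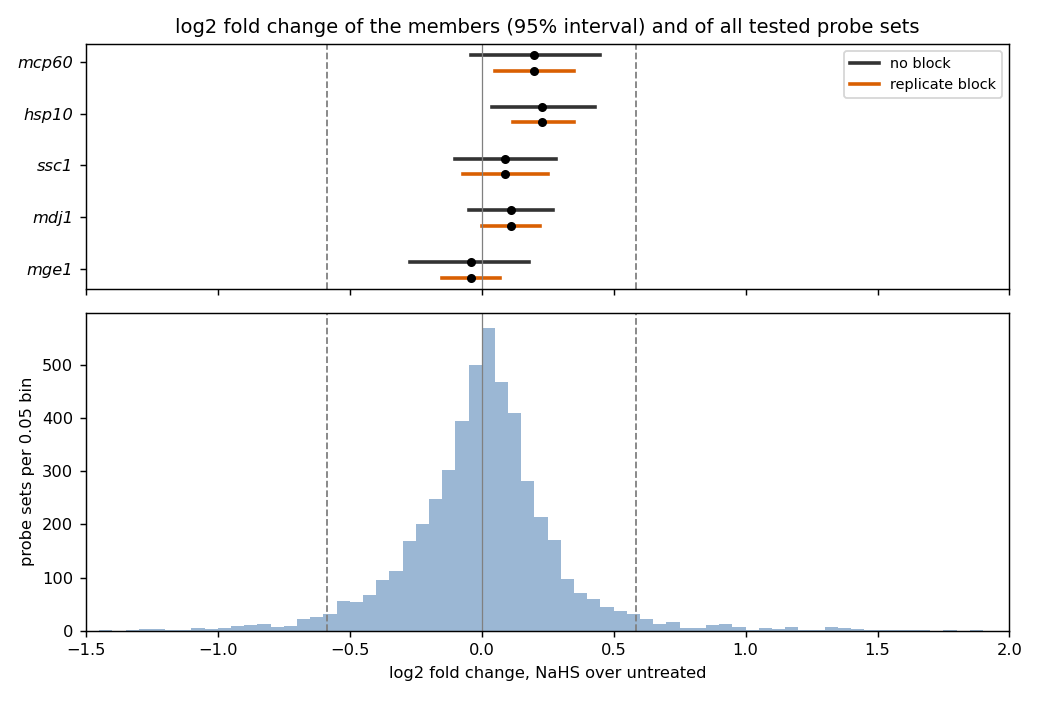
Upper panel, log2 fold change (NaHS over untreated, x axis) of each member as a point, with its 95% limma interval without the replicate block (black) and with it (orange). Lower panel, number of tested probe sets (y axis) in bins of 0.05 of the same x axis, which is cut at -1.5 and 2. Dashed lines mark a 1.5-fold change in each direction, and all 10 intervals lie between them.

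For *mge1* the replicates differed more than the treatment groups. It averaged 10.91 on the 2 arrays of replicate 1 and 11.09 on the other 4, a difference of -0.18 on the log2 scale, against a log2 fold change of -0.04. In the other 4 members the difference between the replicate 1 arrays and the other 4 arrays was smaller in size than the log2 fold change. *mcp60* was higher by 0.15 on the replicate 1 arrays, and *hsp10* lower, with a difference of -0.12. Those of *ssc1* and *mdj1* were both 0.06. Single arrays of a group could still differ by more than the log2 fold change. In NaHS replicates 2 and 3 the signals were 12.65 and 12.83 for *ssc1*, and 12.30 and 12.52 for *mcp60*. Both replicate 1 arrays stood apart over the tested probe sets, with a correlation of 0.969 or 0.970 with the other arrays of their group, against 0.994 (NaHS) and 0.996 (untreated) between replicates 2 and 3. Without them 0 of the 5 members passed (limma), with 14.3% of the tested probe sets called. The log2 fold change of *hsp10* was then 0.26 (adjusted p = 0.065) and that of *mcp60* 0.22 (adjusted p = 0.195).

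Signals of all members were far above the background. The 5 budding yeast genes of the same functions, *HSP60*, *HSP10*, *SSC1*, *MDJ1* and *MGE1*, have probe sets on the same array to which only *S. pombe* RNA was given. Their mean log2 signals over the 6 arrays were between 0.53 for *MDJ1* and 3.54 for *HSP60*. The lowest signal of a member on any array was 10.13, for *mdj1*. RNA came from whole cultures, and a change in RNA per cell cannot be told apart from a change in the share of cells that make it.

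Ssc1 and Mdj1 have relatives outside mitochondria. Of 5 measured genes for other Hsp70 and Hsp110 proteins, 1 rose, *ssa1*, which encodes a cytosolic Hsp70. Its log2 signals were 11.15, 10.94 and 11.06 in NaHS-treated replicates 1, 2 and 3, against 9.54, 9.30 and 9.59 in untreated replicates 1, 2 and 3 (log2 fold change 1.58, limma adjusted p = 0.00119). Set against *ssa1*, the log2 fold change of *ssc1* minus that of *ssa1* was -1.49, with -1.53, -1.66 and -1.26 in replicates 1, 2 and 3. All 3 replicates showed this direction, and the exact permutation p was 0.1, the smallest possible (adjusted p = 0.25). Because *ssa1* was chosen for this pair after its rise had been seen, the direction was known beforehand and the p is no independent support. *sks2*, *ssa2* and *pss1*, for ribosome-bound and cytosolic chaperones of the Hsp70 class, had log2 fold changes of 0.00, 0.04 and 0.17 and did not pass (limma adjusted p = 0.998, 0.926 and 0.255). Of these 5 genes, 2 were called higher with the replicate block, the other being *bip1*, for the Hsp70 of the endoplasmic reticulum (log2 fold change 0.30, adjusted p = 0.405 without and 0.0381 with the block).

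Among 5 measured genes for other J-proteins, *psi1*, for a chaperone of the DnaJ family, rose. Its log2 signals were 11.95, 11.81 and 11.88 in NaHS-treated replicates 1, 2 and 3, against 10.82, 10.75 and 10.82 in untreated replicates 1, 2 and 3 (log2 fold change 1.08, limma adjusted p = 0.00112). The log2 fold change of *mdj1* minus that of *psi1* was -0.97, with -1.03, -0.94 and -0.95 in replicates 1, 2 and 3 (exact permutation p = 0.1, the smallest possible, adjusted p = 0.25). Both pairs with a cytosolic gene were chosen after the values had been seen, so the p for *mdj1* and *psi1* is no independent support either. The adjustment over 5 pairs includes both. *mas5*, for a cytosolic J-protein, *zuo1*, for one bound to ribosomes, and *sec63*, for one of the endoplasmic reticulum, had log2 fold changes of 0.14, -0.13 and 0.08 and did not pass. *cwf23*, for a J-protein of the spliceosome, was called higher with the replicate block (log2 fold change 0.23, adjusted p = 0.33 without and 0.0337 with the block). The exchange factor genes *bag101* and *bag102*, the 2 measured of their list, had log2 fold changes of -0.01 and 0.04.

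The cytosolic relative of Hsp60 is TRiC, a chaperonin of different subunits that folds actin and tubulin. Of 10 measured genes for TRiC and its helper prefoldin, 0 were called (limma, also 0 at an unadjusted p below 0.05, 0 with the replicate block and 0 by SAM), and the log2 fold changes ran from -0.17 to 0.11. Those of *cct3*, *cct4* and *cct6* were -0.02, 0.05 and -0.02.

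Of 8 measured genes of the Hsp90 system, the small heat shock proteins and the heat shock factor, 3 rose. These were *sti1* and *cdc37*, for co-chaperones of Hsp90, and *hsp16*, for a small heat shock protein, with log2 fold changes of 0.72, 0.71 and 0.89 (limma adjusted p = 0.00747, 0.00981 and 0.00612). Without untreated replicate 2 or untreated replicate 3 the calls of *sti1* and *cdc37* were lost (highest adjusted p = 0.0529 and 0.0639). *wos2*, for an Hsp90 co-chaperone, did not pass (log2 fold change 0.27, adjusted p = 0.0896), but rose in the fit with the replicate block (adjusted p = 0.0205). *hsp90* and *hsp9* had log2 fold changes of 0.07 and -0.03. The heat shock factor gene *hsf1*, whose product activates chaperone genes, averaged 9.94 ± 0.06 after NaHS and 9.95 ± 0.14 without it (SD, n = 3 each; limma adjusted p = 0.998).

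Proteins that work with Ssc1 at the inner membrane were measured through 8 genes of the translocase and the import motor, and 0 were called (limma, also 0 at an unadjusted p below 0.05, 0 with the replicate block and 0 by SAM). Log2 fold changes were between -0.17 and 0.11, with a median of -0.04. Those of *tim23* and *tim17*, for channel subunits of the translocase, were -0.05 and -0.03, and that of *mgr2* was 0.01. *tim44*, for the protein that holds Ssc1 at the channel, had the lowest value, -0.17 (adjusted p = 0.464), and *tim14*, for the J-protein of the motor, the highest, 0.11 (adjusted p = 0.80).

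Of 11 measured genes for mitochondrial proteases, prohibitins, processing peptidases and assembly factors, 1 rose by limma and 0 were called by SAM. This was *atp11*, which encodes a chaperone for the assembly of the ATP synthase, with 10.47, 10.58 and 10.63 in NaHS-treated replicates 1, 2 and 3, against 10.06, 10.09 and 10.20 in untreated replicates 1, 2 and 3. Its log2 fold change was 0.44 (limma adjusted p = 0.028), which is less than a 1.5-fold change, and among the 6 fits with an array removed it passed only without NaHS replicate 1 (highest adjusted p = 0.138, without untreated replicate 2). The prohibitin genes *phb1* and *phb2* had log2 fold changes of 0.03 and 0.21 and *lon1*, for the matrix protease that removes misfolded proteins, of -0.03, and none of these passed. *qcr1*, also known as *mas1*, was called lower with the replicate block (log2 fold change -0.72, adjusted p = 0.303 without and 0.00201 with the block). Its differences within replicates 1, 2 and 3 were -0.68, -0.75 and -0.72. The product is a subunit of the peptidase that removes import signals, and the study also counts the gene among those of mitochondrial respiration.

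Iron-sulfur cluster assembly also uses a mitochondrial Hsp70. Of 8 measured genes of this pathway 0 were called by limma and 0 by SAM. In the limma fit 3 had an unadjusted p below 0.05, as had 22.5% of all tested probe sets. With the replicate block, which called 32.7% of all tested probe sets, 1 was higher and 2 were lower. These were *isa2*, for a late assembly factor (log2 fold change 0.42, adjusted p = 0.015 with the block), *nfs1*, for the cysteine desulfurase that takes sulfur from cysteine (-0.19, adjusted p = 0.0286), and *arh1*, for a reductase of the pathway (-0.18, adjusted p = 0.0441). The scaffold gene *isu1* had a log2 fold change of 0.09 and *etp1* of 0.04.

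**Figure D3:**
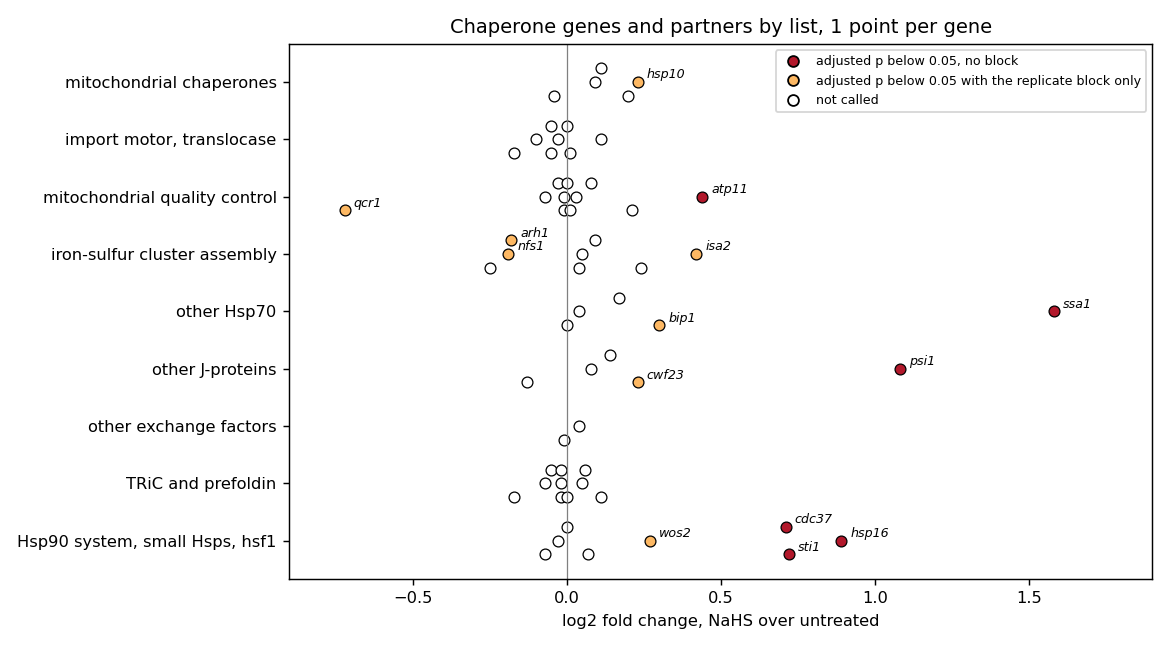
log2 fold change (NaHS over untreated, x axis) of each measured gene, 1 point per gene, for the mitochondrial chaperones and the lists of partners and relatives (y axis, points spread vertically for legibility). Red points passed limma at an adjusted p below 0.05 without the block, orange points only with the replicate block. The red points are *atp11* and 5 genes of cytosolic chaperones, and none of the 5 mitochondrial chaperone genes is red. The disaggregase genes *hsp78* (matrix) and *hsp104* had no paired probe set. They are not plotted, so the plot does not show whether they responded.

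Over the 57 measured genes of these lists, 6 rose and 0 fell (limma, 8 and 2 at an unadjusted p below 0.05, 10 and 3 with the replicate block, 5 and 0 by SAM), and the median log2 fold change was 0.01. Of the tested probe sets 3.97% were called higher and 3.67% lower, and with the replicate block 16.3% and 16.4%. At an unadjusted p below 0.05 (limma), 551 of the 4965 were higher and 564 lower, and SAM called 3%.

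Genes whose signals followed the members over the 6 arrays were searched among 2865 other genes. Pearson's r over 6 arrays that share 2 groups and 3 replicate numbers is high for many genes, and it is given as a description. The genes closest to *hsp10* were *rpn8*, for a proteasome subunit (r = 0.990), *rpb2*, for a subunit of RNA polymerase II (0.984), and *yak3* (0.983). *snd1*, *zpr1* and *dld1* were closest to *mcp60* (0.985, 0.972 and 0.972), and *arg12*, *vma1* and *vma11* to *ssc1* (0.967, 0.954 and 0.947). *ain1*, *cao1* and *cha4* were closest to *mdj1* (0.997, 0.992 and 0.991), and *dpb4*, *pcd1* and *snf30* to *mge1* (0.998, 0.997 and 0.995). No member was among the closest 3 of another. Between members r was highest for *mcp60* and *ssc1* (0.926), was 0.493 for *mcp60* and *hsp10*, and was negative for *mge1* with *mcp60*, *ssc1* and *mdj1* (-0.715, -0.586 and -0.601).

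Fold changes of the members under other ways of processing are plotted for each gene, and those of *mcp60*, *hsp10*, *ssc1* and *mdj1* stayed positive in every one.

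**Figure D4:**
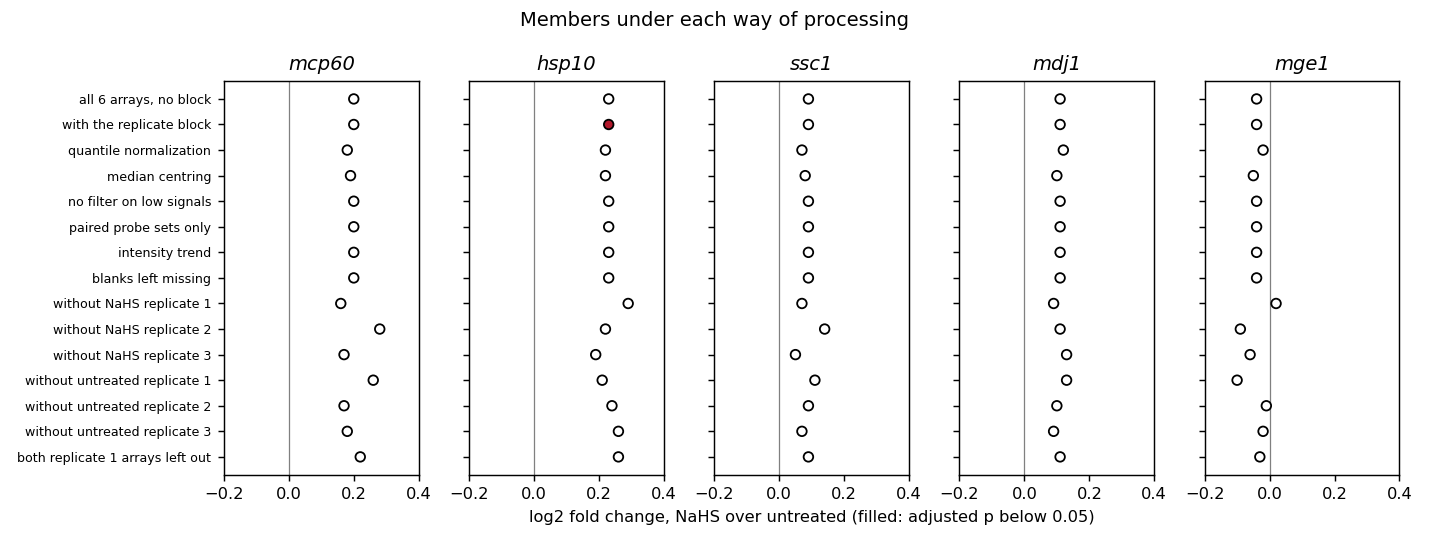
log2 fold change (NaHS over untreated, x axis) of each member under 15 ways of processing (y axis), with the fit of all 6 arrays without a block on top. Filled points have a limma adjusted p below 0.05, which only *hsp10* with the replicate block reached.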

How the data were processed

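Log2 signals per probe set were deposited. Per the labels and the methods of the study, the authors' array service made them with MAS5, whose version and scaling target the sources used here do not give. That they are log2 was read from the values. Blanks, 23.59% of all and present in 8 tested probe sets, were set to 0. The annotation pairs 2937 of the 10928 probe sets with *S. pombe* and 2601 with *S. cerevisiae*, whose signals served as background. Tested were the *S. pombe* probe sets and 2028 unlisted probe sets whose mean exceeded 3.67, a limit that 99 percent of the *S. cerevisiae* probe sets stayed below, 4965 in all. The median over tested probe sets was between 9.49 and 9.58 on each array. The number of arrays limits the precision.

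The comparison of the NaHS group with the untreated group used limma 3.58.1 (R 4.3.3, two-sided, Benjamini-Hochberg over the tested probe sets, 4 residual and 2.016 prior degrees of freedom). The methods name SAM, which was programmed here and run with all 20 label arrangements (constant s0 of 0.426, estimated false discovery rate 0.0459). Such a constant makes small steady changes hard to call. Scripts were tested on simulated data. Tables and figures used Python 3.11.15, with exact permutation tests in SciPy 1.17.1.

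Deviations from the group means correlated within replicate numbers 1, 2 and 3 at 0.867, 0.578 and 0.598. These were above the 0.1 required, so the numbers were used as the replicate block of an alternative fit. The main fit and the permutation tests used no pairing, since the methods name none. The sample titles do give treated and untreated cultures the same experiment numbers, without stating that these mark paired cultures. Across numbers, NaHS replicate 3 correlated with untreated replicate 2 at 0.592. NaHS replicate 2 correlated with untreated replicate 3 at 0.637, above both values within numbers 2 and 3. The check thus cannot tell the pairs of replicates 2 and 3 apart, and rests mainly on replicate 1.

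Members and gene lists were chosen with earlier results of these data known. Named were all members, every called list gene, up to 3 uncalled genes of each list with the highest signal, *hsf1*, and the 3 genes closest to each member. Of the 93 names of the partner lists, 57 were measured, and 18 match no gene of the reference. *pim1* and *cyp3* were taken off a list because the *S. pombe* genes of these names are other genes or of uncertain place. *tim44*, *tim14*, *qcr1*, *isa2*, *arh1*, *bip1* and *cwf23* were named after their values were seen. Sequences of the members were not used here. Alternatives tried are given in the closing section.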

Additional observations from a re-analysis of the deposited data

How the results depend on the processing

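The fold changes of the members and of the 6 called partner genes, and the counts of calls, were recomputed under 16 alternatives, 1 of which (both replicate 1 arrays left out) was chosen after seeing the data. The differences between responses were recomputed with 1 array left out for 3 pairs only, and ran from -0.12 to 0.06 for *mcp60* minus *hsp10*, -0.08 to 0.04 for *ssc1* minus *mdj1* and 0.05 to 0.23 for *ssc1* minus *mge1*. The pairs with *ssa1* and *psi1*, the correlations and the neighbouring genes were not recomputed. For *mcp60*, *ssc1* and *mdj1* the direction and the side of the threshold stayed as reported in all 16. With 1 array left out, the log2 fold change was 0.16 to 0.28 for *mcp60*, 0.19 to 0.29 for *hsp10*, 0.05 to 0.14 for *ssc1*, 0.09 to 0.13 for *mdj1* and -0.10 to 0.02 for *mge1*, whose sign changed without NaHS replicate 1 (0.02). With the replicate block *hsp10* passed (log2 fold change 0.23, adjusted p = 0.021; range of its adjusted p over the alternatives 0.021 to 0.371), so that 1 member was called higher. The block called 10 partner genes higher and 3 lower, and 807 and 815 of all tested probe sets. It changed no call of another member. Leaving out 1 array gave 0 called members, 3 to 6 partner genes higher (3 without untreated replicate 2 or 3) and 0 lower, and 67 to 134 probe sets higher and 24 to 97 lower. Without both replicate 1 arrays 1 partner gene was lower, and 346 probe sets were higher and 364 lower. SAM called 118 higher and 31 lower, and a fold above 1.5 left 120 and 79. With paired probe sets only, which tests fewer, 92 were higher and 77 lower. The cause of these changes was not tested. The number of arrays limits the precision, and standard errors also depended on the block (0.08 without and 0.04 with it for *hsp10*). The lowest signal of a member was 10.13, above the means of all 5 budding yeast counterparts.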

Other observations

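The protein-coding genes next to the members in the reference gave 6 further values, for the neighbours with a probe set of their own. Beside *mcp60*, *taf9*, which encodes a transcription factor subunit, had a log2 fold change of -0.24 (limma adjusted p = 0.29) and *cip2* one of 0.15 (adjusted p = 0.946). *nse1* beside *hsp10* had -0.12, *klp2*, for a kinesin, beside *ssc1* 0.08, *not2* beside *mdj1* -0.05 and *vma7*, for a subunit of the vacuolar ATPase, beside *mge1* 0.08, all as log2 fold changes. None of the 6 passed (lowest adjusted p = 0.29), so no member had a neighbour with a called change among those measured.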
